A study of Mus musculus with 12 samples.

Results

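Cholesterol synthesis and its control by SREBP-2 were described across the liver arrays through 28 named genes. They comprised 4 regulators, 20 enzymes and 4 genes of sterol transport, receptor turnover or esterification. The enzymes lie on the route from acetyl-CoA to cholesterol, except Ggps1 of an isoprenoid branch, which is counted with them throughout. A gene was taken as measured where the value table held a row whose platform annotation gives that gene and no other, matched by gene ID. This held for 25 of the 28, among 19938 genes tested in all; no row was matched to Acat2, Soat1 or Soat2. The 28 genes do not cover every enzyme of the pathway. The study compared livers of 6 wild-type (WT) mice with livers of 6 mice that carry the K289R knock-in of LRH-1, a nuclear receptor of liver lipid metabolism encoded by Nr5a2. The knock-in replaces a lysine of the receptor with an arginine and removes a site for attachment of the small protein SUMO. All 12 mice were males on the C57BL/6J background, went without food for 24 h before 6 h of refeeding, and gave 1 Affymetrix array each. Their age is not stated in the labels, and the labels name no transgene, Cre or drug in either group.

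Cells make cholesterol from acetyl-CoA through mevalonate, isoprenoid diphosphates, squalene and lanosterol. When the endoplasmic reticulum is poor in sterol, the carrier SCAP escorts the transcription factor SREBP-2 to the Golgi, where it is cut free and then raises transcription of nearly all genes of the pathway together. When sterol is plentiful, the INSIG proteins hold SCAP back. The liver is a major site of this synthesis, and fasting and refeeding are known to lower and raise it.

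Values are probe-set intensities on a linear scale. Differences are log2 values, K289R minus WT, from limma with Benjamini-Hochberg adjustment over the 19938 genes, and a gene was called changed at an adjusted p under 0.05. Each of the 25 genes lay above the array median (26.8 to 29.2) on every array. All 8 hepatocyte markers were bright, with a mean log2 intensity of 11.64 to 11.74 across the arrays. The RNA came from whole liver, so fewer cells of a type and less RNA per cell cannot be told apart. Markers of other cells or states set 4 arrays apart. Pancreatic acinar transcripts averaged 8.46 on K289R 1 and 9.02 on K289R 3 on the log2 scale, against 4.20 to 4.51 on the other 10 arrays (10 of 12 markers measured). Acute phase transcripts averaged 8.63 on WT 1 and 8.70 on WT 3, against 6.36 to 7.50 elsewhere (10 of 10 measured).

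No gene of the group changed between the genotypes by this test. Of the 25, 0 were called, where 114 of all genes (0.572%) were. At an unadjusted p under 0.05 there were 2 of 25, both higher in K289R (Insig2 and Tm7sf2), where 6.42% of all genes and 10.7% of the brighter 9969 genes were higher at that p. Groups of arrays overlapped for every member, and 1.24% of all genes had groups that did not overlap. Log2 differences ran from -0.14 (Idi1) to 0.38 (Insig2) with a median of 0.044, beside a median of -0.012 over all genes. Values above 0 were found for 17 members, beside 46.0% of all genes and 57.2% of the brighter genes, but for 11 members after quantile normalization and for 10 without WT 1.

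**Figure D1:**
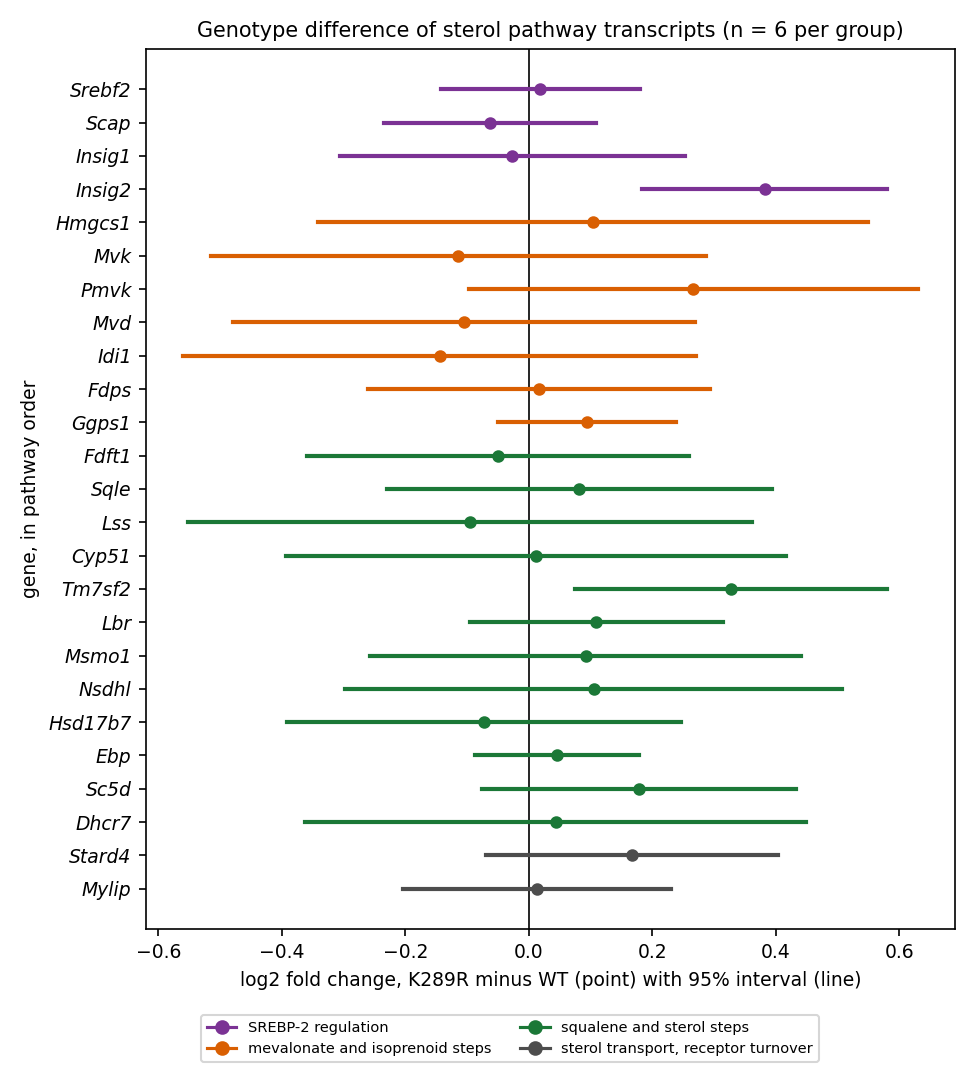
Log2 difference of each measured gene between genotypes (x axis, K289R minus WT; points are estimates, lines 95% intervals from limma, n = 6 per group), with genes in pathway order on the y axis and coloured by role. The intervals of 23 of the 25 genes include 0, and those of Insig2 and Tm7sf2 lie above it.

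Among the regulators, Insig2, which retains SCAP in the endoplasmic reticulum, had the smallest p of the whole group. Its intensity ran from 1126 through a median of 1279 to 1420 in WT and from 1354 through 1701 to 1948 in K289R. In K289R, 5 of the 6 arrays lay above the highest WT array, and K289R 1 lay below it. The log2 difference was 0.38 (SE 0.094), a ratio of 1.30 with a 95% interval of 1.14 to 1.50, and the adjusted p of 0.0883 missed the threshold. Over the other settings its adjusted p ran from 0.0387 (without K289R 1) to 0.206 (without WT 2). It passed in 2 of them, without K289R 1 and with a trended and robust variance (adjusted p = 0.0487). The difference stood at 0.40 without K289R 1 and 3 and at 0.38 without WT 1 and 3.

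Insig1, the other INSIG gene and itself a target of SREBP-2, had 2551 ± 520 among WT and 2460 ± 252 among K289R mice (SD, n = 6 each, as for all such values here). Its log2 difference was -0.027 (95% interval of the ratio 0.81 to 1.19, adjusted p = 0.953). The WT spread came mostly from 1 array, WT 1 at 1541, and values from 2523 to 2920 were found on the rest. Whether Insig1 and Insig2 differed from each other in their genotype difference was not tested.

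Srebf2, which encodes SREBP-2, measured 222 ± 23.2 in WT and 224 ± 13.9 in K289R, a ratio of 1.01 (95% interval 0.91 to 1.13). Scap had 368, 398 and 438 as lowest, median and highest WT intensities and 327, 393 and 429 as those of K289R. Its log2 difference was -0.063 (adjusted p = 0.781). Transcript levels of these 2 genes were thus within 1 SD of each other between genotypes. An array of this kind does not measure the cutting of SREBP-2.

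The mevalonate enzymes came next, and 0 of 7 were called. Hmgcs1, the cytosolic synthase that makes HMG-CoA, ran from 710 through 1430 to 2005 in WT and from 1096 through 1377 to 1880 in K289R. WT 1 was the lowest array of all 12 and WT 2 the highest. The log2 difference was 0.10 with a standard error of 0.21, so the interval of the ratio reached from 0.79 to 1.46.

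The kinases of the pathway had estimates of opposite sign, and whether these differed from each other was not tested. Mevalonate kinase (Mvk) had 286 ± 79.2 in WT and 265 ± 83.7 in K289R, a log2 difference of -0.11 (adjusted p = 0.839). Phosphomevalonate kinase (Pmvk) ran from 73.1 through 114 to 127 in WT and from 88.8 through 126 to 212 in K289R. K289R 6 held that highest value, and the other 5 K289R arrays were at or below 148. The Pmvk log2 difference of 0.27 (adjusted p = 0.545) was 0.13 without K289R 6 and also 0.13 without WT 1 and 3. Mevalonate diphosphate decarboxylase (Mvd), which makes isopentenyl diphosphate, had 216 ± 60.7 and 196 ± 32.4.

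Isopentenyl diphosphate isomerase (Idi1) had the lowest estimate of the group. It ran from 830 through 1288 to 1773 in WT and from 772 through 1177 to 1801 in K289R, nearly the same span, and the log2 difference was -0.14 (interval of the ratio 0.68 to 1.21). Without K289R 6 that difference was -0.28 and without K289R 4 it was -0.032. Without WT 1 it was -0.27, and Mvd and Lss, also at -0.27, then lay slightly below it. A second probe set of Idi1 gave the same difference, -0.14. Farnesyl diphosphate synthase (Fdps), which joins the 5-carbon units, had 1084 ± 209 in WT and 1089 ± 181 in K289R. Ggps1, which makes geranylgeranyl diphosphate for protein prenylation rather than for sterols, ran from 43.2 through 47.0 to 49.3 in WT. In K289R it ran from 43.0 through 50.5 to 55.9, a log2 difference of 0.094 (adjusted p = 0.593).

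Of the 12 enzymes from squalene to cholesterol 0 were called as well. Squalene synthase (Fdft1) had 1750 ± 379 in WT and 1675 ± 290 in K289R, and its second probe set gave a log2 difference of -0.057 beside -0.050. Squalene epoxidase (Sqle), an oxygen-dependent step of the pathway, had 497 ± 101 and 526 ± 106. For both genes the difference between genotypes was smaller than the SD within groups.

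Lanosterol synthase (Lss), which closes the sterol rings, had the widest spread of the group. It ran from 270 through 530 to 671 in WT and from 339 through 440 to 757 in K289R, and its log2 difference was -0.095 (interval of the ratio 0.68 to 1.28). Single arrays moved this estimate to -0.27 (without WT 1) or to -0.0054 (without K289R 4). Lanosterol demethylase (Cyp51) ran from 323 through 534 to 681 in WT and from 335 through 508 to 714 in K289R, with a log2 difference of 0.011. For both enzymes WT 1 and K289R 4 were the lowest arrays of their groups, and K289R 6 was the highest of all 12.

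Tm7sf2, a sterol C14 reductase, had the largest estimate among the enzymes. It ran from 296 through 365 to 425 in WT and from 336 through 452 to 567 in K289R, where 4 arrays lay above the highest WT array. The ratio was 1.25 with an interval of 1.05 to 1.49, and the adjusted p of 0.281 missed the threshold, as it did in the other settings (0.154 to 0.746). The log2 difference of 0.33 was 0.20 without WT 1 and 3 and 0.32 without K289R 1 and 3. Lbr, a nuclear envelope protein with the same reductase activity, ran from 55.9 through 66.6 to 74.6 in WT and from 58.6 through 66.6 to 83.7 in K289R. Its log2 difference was 0.11 (adjusted p = 0.668), and the medians of the groups were equal to 3 digits.

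The C4 demethylation enzymes gave small estimates. The methyl oxidase Msmo1 had 1369 ± 326 in WT and 1447 ± 300 in K289R. The decarboxylase Nsdhl ran from 398 through 667 to 947 in WT and from 501 through 698 to 1087 in K289R, with a log2 difference of 0.11 (adjusted p = 0.853). The ketosteroid reductase Hsd17b7 had 649 ± 133 and 617 ± 137. Each of these differences was less than 1 SD.

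The last steps held both the steadiest and some of the most variable transcripts. The sterol isomerase gene Ebp ran from 539 through 568 to 605 in WT and from 528 through 588 to 646 in K289R, a log2 difference of 0.045 with a standard error of 0.063. Sc5d, a sterol desaturase, ran from 915 through 1510 to 1646 in WT and from 1352 through 1608 to 1743 in K289R. Its log2 difference of 0.18 was 0.058 without WT 1, which was its lowest array. Dhcr7, the 7-dehydrocholesterol reductase, ran from 283 through 565 to 748 in WT and from 443 through 514 to 815 in K289R. On the log2 scale its difference of 0.044 turned to -0.14 without WT 1.

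Of the genes that handle sterol outside synthesis, Stard4, a cytosolic sterol carrier, ran from 180 through 196 to 267 in WT. In K289R it ran from 202 through 237 to 304, and the log2 difference was 0.17 (adjusted p = 0.558). Mylip, an E3 ligase that sends lipoprotein receptors to degradation, had 87.0 ± 10.6 in WT and 88.1 ± 13.6 in K289R.

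With WT 1, WT 3, K289R 1 and K289R 3 all left out, 0 of the 25 genes were called and 16 lay above 0. Log2 differences then ran from -0.16 (Insig1) to 0.39 (Insig2) with a median of 0.060. Tm7sf2 stood at 0.20, Stard4 at 0.27, Lbr at 0.24 and Pmvk at 0.21.

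**Figure D2:**
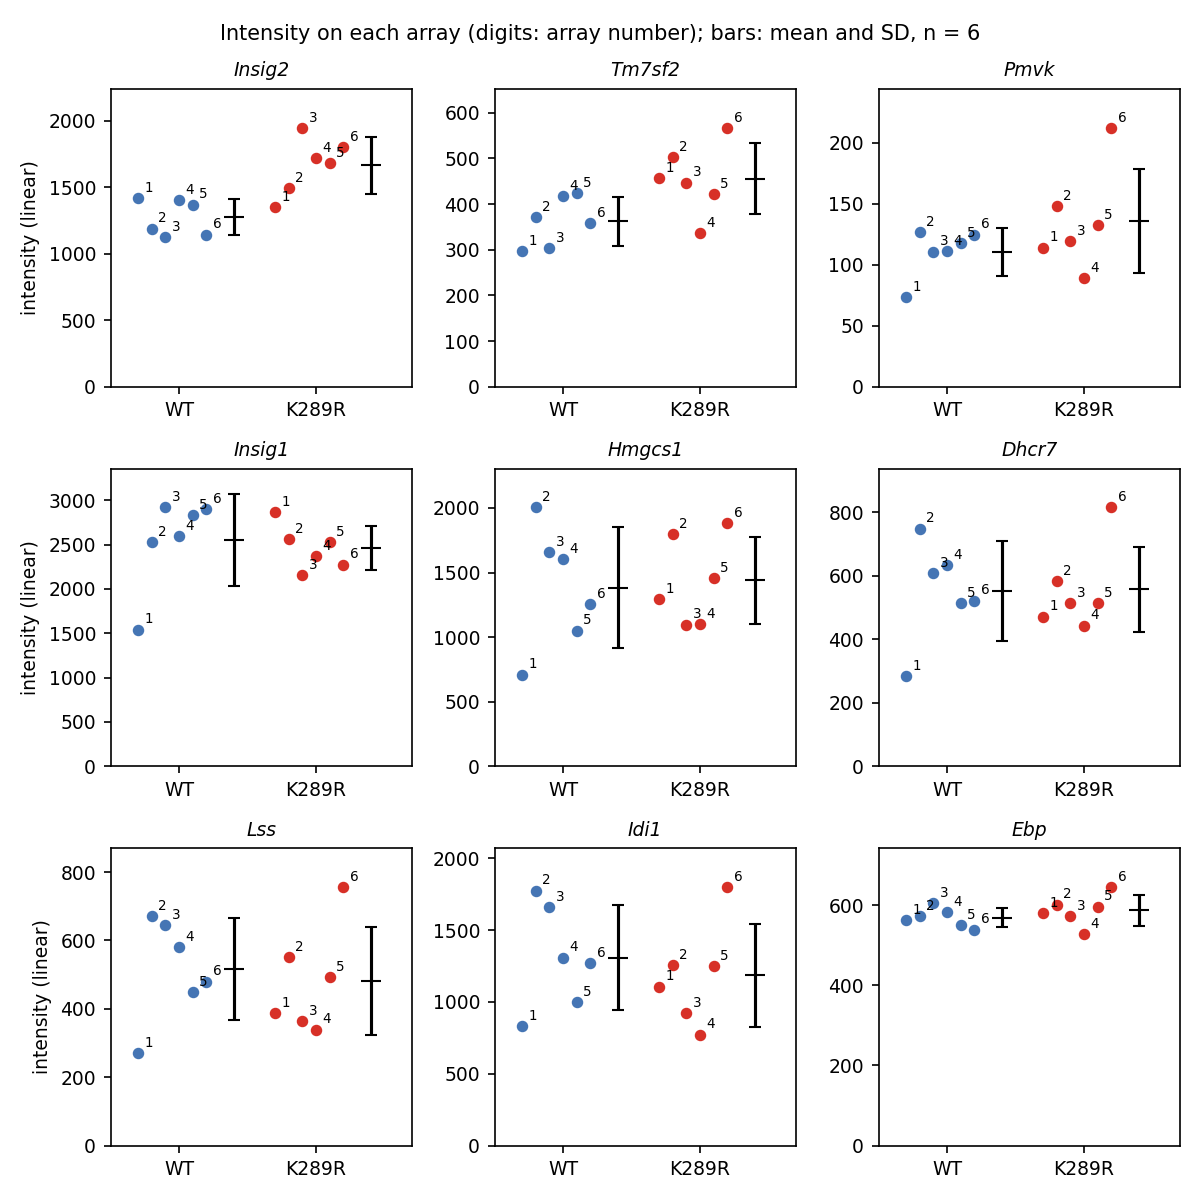
Linear intensity (y axes, from 0) of 9 of the genes on each array, WT in blue and K289R in red, with the array number beside each point and the mean with SD (n = 6) in black. Insig2 sits higher in K289R on 5 of 6 arrays, WT 1 is low for Insig1, Hmgcs1, Dhcr7 and Lss, and Ebp varies little.

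Transcripts of the group varied widely among mice of one genotype. The median SD within groups was 0.30 on the log2 scale for the 25 genes and 0.35 for the 19 enzymes, beside 0.15 for all genes and 0.14 for the brighter ones. Lss (0.46), Hmgcs1 and Idi1 had the largest SD of the members and Ebp (0.080) the smallest. The log2 difference was smaller than the SD within groups for 23 of the 25 genes (all but Insig2 and Tm7sf2), beside 78.7% of all genes and 73.7% of the brighter ones. The highest WT array exceeded the lowest by over 2-fold for 9 of the 25 genes, beside 1.99% of all genes and 2.70% of the brighter ones. In K289R this held for 6 of the 25, beside 1.53% of all genes and 1.59% of the brighter ones. In WT the widest span was 2.82-fold (Hmgcs1), and in K289R it was 2.39-fold (Pmvk).

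The enzymes rose and fell with the array. WT 1 was the lowest WT array for 16 of the 19 enzymes, beside 20.4% of all genes, and WT 2 the highest for 12, beside 22.6%. In K289R, array 4 was the lowest for 11, beside 14.7%, and array 3 for 6, beside 14.4%. K289R 6 was the highest of its group for 15 of 19, beside 25.0% of all genes. Every enzyme lay below its group mean on K289R 3 and on K289R 4, and none did on K289R 2 and K289R 6. The exceptions at WT 1 were Ggps1, Lbr and Ebp.

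**Figure D3:**
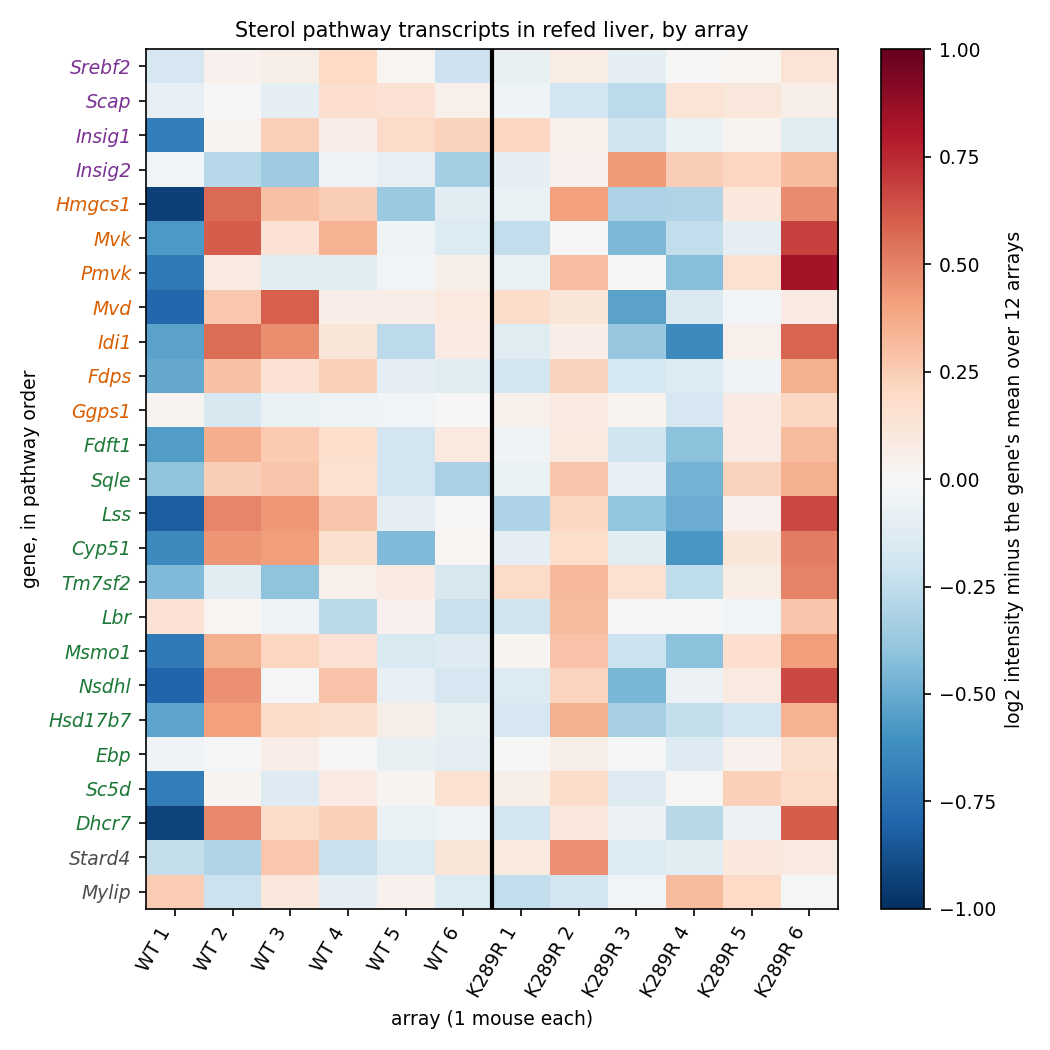
Log2 intensity of each gene minus its own mean over all 12 arrays (colour scale, blue low and red high), with arrays on the x axis and genes in pathway order on the y axis. The column of WT 1 is below 0 for 17 of the 19 enzymes, that of K289R 3 for 16 and that of K289R 4 for 18, while WT 2 is below 0 for 3 and K289R 6 for 0.

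The mean log2 intensity of the 19 enzymes put numbers on this pattern. In WT it was 8.35, 9.18, 9.05, 9.02, 8.80 and 8.84 on arrays 1 to 6, and in K289R 8.83, 9.10, 8.71, 8.62, 8.95 and 9.33. The groups overlapped throughout, at 8.88 ± 0.29 for WT and 8.92 ± 0.26 for K289R (SD, 6 arrays each). WT 1 lay 0.52 below its group mean as deposited, 0.52 below after equal array medians and 0.52 below after quantile normalization. The array medians were already close as deposited (26.8 to 29.2), so these rescalings were a weak check of the scaling. Lowest and highest arrays differed 1.78-fold in WT and 1.64-fold in K289R.

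Other transcripts set WT 1 apart too. Skeletal muscle markers averaged 6.71 on WT 1 and 5.69 on K289R 3, against 4.19 to 4.61 on the other 10 arrays (8 of 8 measured, log2 scale). The stellate cell list (Lrat, Des, Reln and Dcn) averaged 8.01 on WT 1, against 7.29 to 7.68 elsewhere. Skeletal muscle also expresses Des, so this mean is not fully separate from the muscle markers. The genes of the list were not examined singly, and the part of stellate cells in it was not tested. Acute phase transcripts were high on WT 1 and WT 3 alike, and the enzyme mean of WT 3 lay 0.18 above its group mean. On K289R 3 and K289R 4, whose enzyme means were the lowest of their group, acute phase transcripts averaged 7.24 and 7.50, against 6.36 to 6.74 on the other K289R arrays. Macrophage markers averaged 7.29 on K289R 4, the highest of all arrays, and 6.78 on K289R 3, against at most 6.66 on the other K289R arrays and 6.24 to 6.88 in WT. The part of these transcripts in the enzyme levels was not tested. Hepatocyte markers averaged 11.74 on WT 1, the highest of all arrays, and 11.64 on K289R 4, the lowest. Their part was not tested either.

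**Figure D4:**
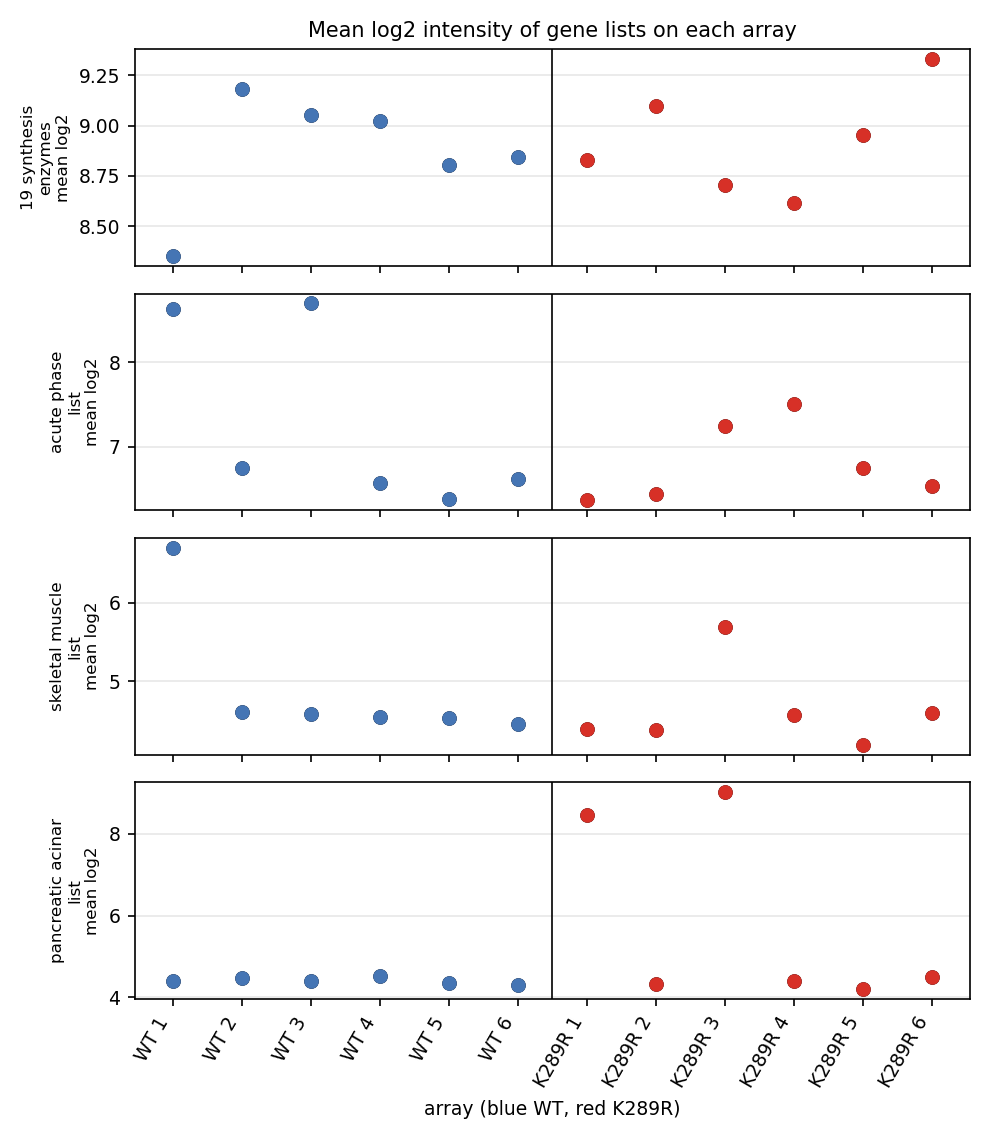
Mean log2 intensity (y axes, not from 0) of the 19 synthesis enzymes and of 3 marker lists on each of the 12 arrays, WT in blue and K289R in red. The enzyme mean is lowest on WT 1 (8.35) and highest on K289R 6 (9.33), acute phase transcripts are highest on WT 1 and 3, and acinar transcripts on K289R 1 and 3.

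The spread of the groups depended on single arrays. The SD of log2 values was larger in WT than in K289R for 15 of the 25 genes, beside 49.8% of all genes and 55.7% of the brighter ones, and for 3 of the 25 when WT 1 was left out. Without WT 1 the number of members with an over 2-fold span in WT went from 9 to 0, while over all genes it went from 396 to 235. Without K289R 6 that number in K289R went from 6 to 0, and over all genes from 305 to 235. These arrays were left out because they were extreme for these genes, so the falls to 0 are descriptions, and the counts over all genes are no matched control for them.

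**Figure D5:**
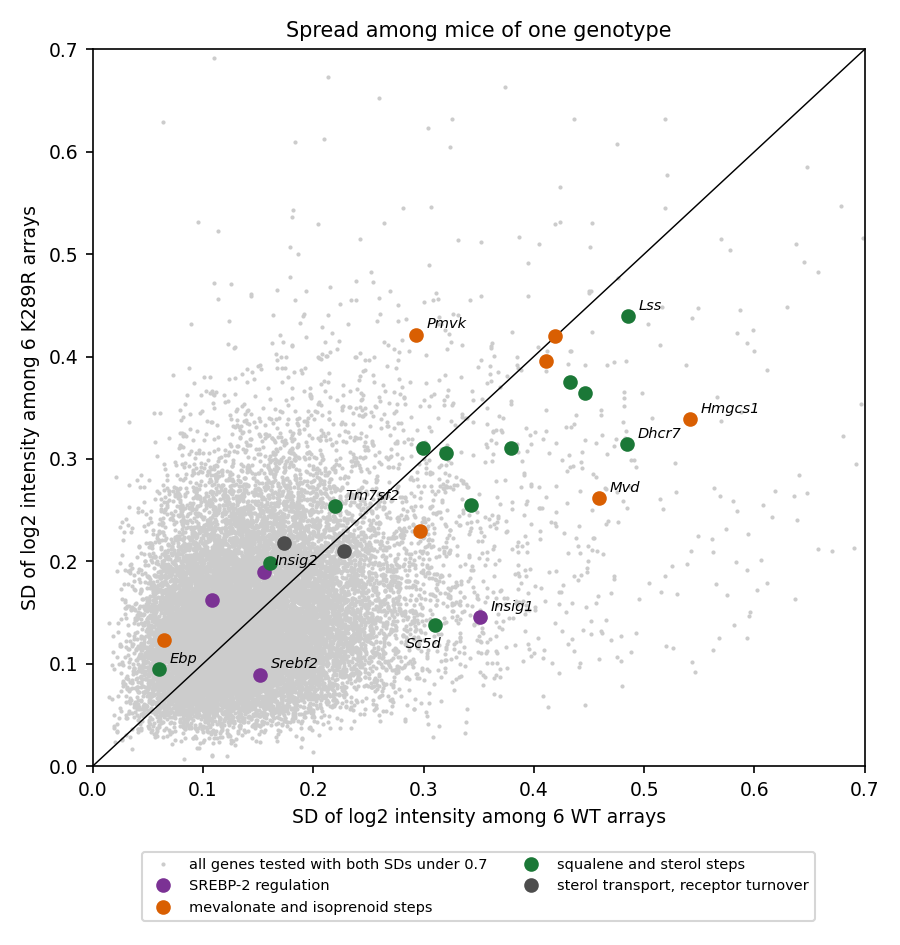
SD of log2 intensity among the 6 WT arrays (x axis) against that among the 6 K289R arrays (y axis) for the 25 genes, coloured by role, with all genes tested in grey where both SDs are under 0.7 and a line of equal SD. Hmgcs1, Dhcr7, Mvd, Insig1 and Sc5d lie below the line (wider in WT), Pmvk lies above it, and Ebp and Srebf2 sit among the steadier genes.

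The sequence upstream of the start is shown for the 6 members with the largest SD within groups, for Ebp as the steadiest and for Insig2. Whether these letters relate to the shared movement of the enzymes from array to array was not tested. Promoters came from RefSeq (GRCm38.p6), which gave entries for 21 of the 25 genes; Fdps, Fdft1, Sqle and Stard4 had none. Letters were searched on both strands in the 250 bases before each start. The sterol regulatory element, to which SREBP binds, was searched as TCACNCCAC and the CCAAT box, bound by the SREBP partner NF-Y, as CCAAT. A binding motif of LRH-1 was searched as CAAGGNC. The 200 bases before each start are printed 5′ to 3′ on the strand of the gene, with matches to the first and second of these in capitals:
Lss: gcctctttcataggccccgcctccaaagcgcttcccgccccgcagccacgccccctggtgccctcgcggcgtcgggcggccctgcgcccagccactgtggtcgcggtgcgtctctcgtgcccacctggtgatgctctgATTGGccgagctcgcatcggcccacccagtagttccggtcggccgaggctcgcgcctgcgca
Hmgcs1: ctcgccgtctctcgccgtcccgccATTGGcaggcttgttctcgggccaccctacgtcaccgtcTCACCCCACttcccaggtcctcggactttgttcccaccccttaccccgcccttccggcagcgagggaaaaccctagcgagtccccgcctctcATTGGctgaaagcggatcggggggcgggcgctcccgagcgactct
Idi1: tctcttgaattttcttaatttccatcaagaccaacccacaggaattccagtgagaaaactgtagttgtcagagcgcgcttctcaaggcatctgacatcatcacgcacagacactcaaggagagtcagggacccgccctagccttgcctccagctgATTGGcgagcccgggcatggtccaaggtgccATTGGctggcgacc
Dhcr7 first start: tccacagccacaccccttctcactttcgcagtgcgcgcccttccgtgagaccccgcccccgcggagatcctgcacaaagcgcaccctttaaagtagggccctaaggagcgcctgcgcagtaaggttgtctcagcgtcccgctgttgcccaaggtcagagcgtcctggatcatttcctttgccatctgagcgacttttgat
Dhcr7 last start: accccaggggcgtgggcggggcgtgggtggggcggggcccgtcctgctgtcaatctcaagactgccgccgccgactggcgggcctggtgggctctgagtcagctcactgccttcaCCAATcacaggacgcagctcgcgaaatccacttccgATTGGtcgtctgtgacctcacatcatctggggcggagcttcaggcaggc
Cyp51: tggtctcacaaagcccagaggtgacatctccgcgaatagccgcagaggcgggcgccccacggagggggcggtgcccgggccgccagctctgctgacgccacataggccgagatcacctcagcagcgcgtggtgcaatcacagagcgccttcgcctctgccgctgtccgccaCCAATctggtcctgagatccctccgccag
Nsdhl: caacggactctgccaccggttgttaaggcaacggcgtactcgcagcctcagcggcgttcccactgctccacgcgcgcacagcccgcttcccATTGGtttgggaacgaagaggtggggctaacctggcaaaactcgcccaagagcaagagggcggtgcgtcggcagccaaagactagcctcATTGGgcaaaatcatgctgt
Ebp: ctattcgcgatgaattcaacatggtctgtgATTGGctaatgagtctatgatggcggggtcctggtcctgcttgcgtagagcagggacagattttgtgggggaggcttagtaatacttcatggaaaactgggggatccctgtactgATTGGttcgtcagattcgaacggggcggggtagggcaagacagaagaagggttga
Insig2: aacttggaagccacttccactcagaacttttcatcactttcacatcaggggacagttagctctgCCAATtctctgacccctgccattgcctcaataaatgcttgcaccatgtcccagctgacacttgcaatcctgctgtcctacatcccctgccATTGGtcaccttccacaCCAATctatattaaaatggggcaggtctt
They lie at chr10:76531405-76531604 (Lss, plus strand), chr13:119690151-119690350 (Hmgcs1, plus strand), chr13:8885406-8885605 (Idi1, plus strand), chr7:143822967-143823166 (Dhcr7 first start, plus strand), chr7:143830014-143830213 (Dhcr7 last start, plus strand), chr5:4104698-4104897 (Cyp51, minus strand), chrX:72918321-72918520 (Nsdhl, plus strand), chrX:8193513-8193712 (Ebp, minus strand) and chr1:121332590-121332789 (Insig2, minus strand).

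A CCAAT box in either direction was found for 20 of the 21 genes, Scap being the exception, beside 38.8% of the 15614 tested genes with a promoter entry. Shares among the brighter genes only were not computed for any of these motifs. Ebp, the steadiest transcript, had 2 and Lss, the most variable, had 1. The strict sterol element was found in 1 of 21, Hmgcs1, at 137 to 129 bases before the start, beside 1.20% of tested genes. Its shorter core, CACNCCA, which overlaps every strict match, was found in 5 of 21, beside 17.6%. The LRH-1 letters were found in 1 of 21, Dhcr7, at 52 to 46 bases before the first of its 3 annotated starts, beside 17.3%. Both CCAAT boxes of Dhcr7 lie before its last start. Insig2 has 3 annotated starts, and the one shown is the only one of them with a CCAAT box. The array does not tell which start was used. A match describes letters in this window and is no measurement of binding. A missing match does not show that a gene lacks a sterol element. Variants of these letters and bases outside the window were not searched.

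Around the pathway, 46 partner genes were listed: SREBP processing and sterol-driven degradation, electron donors, neighbours by name or reaction, isoprenoid branches and sterol-responsive genes. Of the 40 measured 0 were called. At an unadjusted p under 0.05 there were 5 of 40 (4 higher and 1 lower), a share close to that of all genes (2399 of 19938), and the median log2 difference was 0.046. The smallest p belonged to Fnta, the alpha subunit of protein prenyltransferases, which use products of Fdps and Ggps1. Fnta ran from 65.0 through 68.0 to 76.5 in WT and from 76.9 through 86.9 to 95.2 in K289R, without overlap. Its log2 difference was 0.32 (interval 0.17 to 0.47) and its adjusted p 0.0584, which ran from 0.0307 (dim genes left out) to 0.425 (without WT 1, WT 3, K289R 1 and K289R 3) over the other settings.

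The mitochondrial thiolase Acat1 (log2 difference 0.24), the lysosomal acid lipase Lipa (0.25) and Pdss2, a subunit of the synthase for the ubiquinone tail (0.22), had adjusted p of 0.218, 0.248 and 0.362. Syvn1, the ubiquitin ligase of endoplasmic reticulum degradation, measured 467 ± 180 in WT and 308 ± 36.9 in K289R (log2 difference -0.53, adjusted p = 0.253). It was the one partner whose WT arrays spanned over 2-fold, WT 3 being the highest, and the difference was -0.21 without WT 1 and 3. Srebf1, the sister factor of lipogenesis, had 313 ± 52.3 and 372 ± 60.3 (log2 difference 0.25, adjusted p = 0.422). Without all 4 arrays the Srebf1 difference was 0.0049 and that of Pdss2 0.049. The median SD within groups of the 40 partners was 0.15, beside 0.30 for the 25 genes and 0.15 for all genes.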

How the data were processed

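Liver RNA of 12 mice was measured on Affymetrix gene arrays, 1 per mouse. The deposited values are linear intensities per probe set, made with Affymetrix Expression Console, per the submitters' processing notes; the version, normalization and background correction are not named there. Of 35556 rows, 21789 had 1 gene symbol in the platform annotation, which was updated by gene ID (21698 matched). A gene with several probe sets was represented by the one with the highest mean log2 value, giving 19938 genes. Log2 was taken without an offset. K289R was compared with WT by limma 3.58.1 (R 4.3.3, lmFit and eBayes, all 12 arrays, no covariates), two-sided, with Benjamini-Hochberg adjustment. Means ± SD are over linear intensities; log2 differences are of mean log2 values. The number of arrays limits the precision.

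The members, the partner list and the marker lists were chosen with earlier results of these data known. All measured members are named. Lowest, median and highest values are given for the 10 members with the smallest p and the 6 with the largest SD within groups, and of the partners those with the 6 smallest p are named. Where a gene beyond these is given with single arrays (Insig1), it was chosen after its values were seen. Alternatives were equal array medians, quantile normalization, dim genes left out, the mean of probe sets, a trended and robust variance, array weights, a replicate block, log2(value + 16), and arrays left out. The procedure was tested on simulated data with independent noise for each gene. That simulation lacked the shared movement from array to array seen for the enzymes, so it does not cover it. Scan dates were not used here. Replicates are separate mice, per the labels.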

Additional observations from a re-analysis of the deposited data

Results flagged for a closer look

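On 1 array, WT 1, 3 genes lay apart from the rest of their group by more than the 95% critical value of Dixon's gap test. Insig1 measured 1541 on WT 1, and the nearest WT array had 2523. Pmvk measured 73.1 there, with 111 on the nearest array. Sc5d measured 915, with 1351 on the nearest. In all, 52 sets of 6 arrays were examined (25 genes and the enzyme mean in each genotype). Chance flags about 1 in 20 such sets, and over all genes 6.84% of sets were flagged. The 3 of 52 sets flagged here are no larger a share than that over all genes. The 3 genes share the same array, so they are not independent of each other.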

How the results depend on the processing

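No member was called in the 11 other settings and 12 fits without 1 array, except Insig2 (1 member called) with a trended and robust variance and without K289R 1, so the range without 1 array was 0 to 1. For the partners the count of 0 became 1 with dim genes left out, with a trended and robust variance and with log2(value + 16), and ranged from 0 to 1 without 1 array (1 without WT 6 or K289R 4). Of all genes 114 were called; leaving out K289R 1 and 3 gave 75, and leaving out WT 1 and 3 as well gave 65. The count of members above 0 (17) was 11 after quantile normalization, 10 without WT 1 and 3, and 10 (without WT 1) to 19 (without WT 3) with 1 array left out. The count of members with a wider WT group (15) was 3 without WT 1 and 3, 4 with all 4 arrays left out, and 3 (without WT 1) to 17 (without WT 4) with 1 left out. The median log2 difference of the members, 0.044, lay between -0.043 and 0.10 when 1 array was left out. The replicate numbers name different mice: same-numbered arrays had deviations correlated from -0.23 to 0.23 and none matched its own number best, and the replicate block gave 111 called genes and an adjusted p of 0.171 for Insig2. It changed no call of a member.

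Directions of small differences turned with the setting, and every one of them was uncalled; the cause was not tested beyond the arrays named. Insig1 was 0.0023 with equal array medians. Quantile normalization gave Srebf2 -0.039, Fdps -0.0067, Cyp51 -0.048, Ebp -0.015, Dhcr7 -0.0028 and Mylip -0.022. Array weights gave Srebf2 -0.0026, Fdps -0.019, Cyp51 -0.022, Dhcr7 -0.023 and Mylip -0.0026. Without K289R 1 and 3, Mvk was 0.031, Lss 0.056 and Hsd17b7 0.034. Without WT 1 and 3, Srebf2 was -0.0025, Hmgcs1 -0.030, Fdps -0.070, Cyp51 -0.040, Msmo1 -0.0088, Nsdhl -0.070 and Dhcr7 -0.13, and with K289R 1 and 3 left out too Dhcr7 was -0.058. Fits without 1 array ranged from -0.021 to 0.060 for Srebf2, -0.17 to 0.019 for Insig1, -0.072 to 0.23 for Hmgcs1, -0.27 to 0.0043 for Mvd, -0.084 to 0.076 for Fdps, -0.17 to 0.028 for Fdft1, -0.11 to 0.13 for Cyp51, -0.040 to 0.18 for Msmo1, -0.043 to 0.21 for Nsdhl, -0.19 to 0.0026 for Hsd17b7, -0.14 to 0.14 for Dhcr7 and -0.049 to 0.066 for Mylip. The other members kept their direction in every fit without 1 array. Those below 0 ranged from -0.096 to -0.017 (Scap), -0.26 to -0.0041 (Mvk), -0.28 to -0.032 (Idi1) and -0.27 to -0.0054 (Lss). Enzymes above 0 ranged from 0.0099 to 0.19 (Sqle), 0.017 to 0.075 (Ebp), 0.058 to 0.16 (Lbr) and 0.058 to 0.23 (Sc5d). Further enzymes gave 0.062 to 0.14 (Ggps1), 0.13 to 0.38 (Pmvk) and 0.26 to 0.41 (Tm7sf2). Stard4 gave 0.094 to 0.24 and Insig2 0.34 to 0.44.

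The precision is that of 6 mice a group. Enzyme intervals of the ratio such as 0.68 to 1.28 (Lss), 0.79 to 1.46 (Hmgcs1) and 0.93 to 1.55 (Pmvk) leave moderate differences undetectable. The background correction and normalization before deposit are unknown, so other choices at that step could not be tried.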
